A study of Mus musculus with 5 samples.

Results

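The loci of 10 mouse Wnt genes were examined for binding sites of 2 transcription factors, Hand1 and Foxf1. They comprised 4 canonical ligand genes (Wnt2, Wnt2b, Wnt3 and Wnt3a), 3 non-canonical ligand genes (Wnt5a, Wnt5b and Wnt11) and 3 target genes of the canonical pathway (Axin2, Lef1 and Sp5). A site was a peak of a deposited list whose summit lay in the gene or within 100 kb of either gene end. By this rule the 10 genes, out of 21887 protein-coding genes in the table used, held 7 of the 1134 Hand1 peaks and 20 of the 5703 Foxf1 peaks.

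The peaks came from chromatin immunoprecipitation followed by sequencing (ChIP-seq) in E14, a mouse embryonic stem cell line. Hand1 carried an HA peptide tag knocked into its own gene and was precipitated at the MES stage, after 48 h as embryoid bodies and 40 h of re-aggregation with VEGF (5 ng/ml), Activin A (10 ng/ml) and BMP4 (0.3 ng/ml). Foxf1 carried the same tag on an inducible overexpression construct and was precipitated at the CP stage, after a further 32 h as a monolayer with VEGF (5 ng/ml), basic FGF (10 ng/ml) and FGF10 (25 ng/ml). The series held 5 samples: 1 Hand1-HA library, 2 Foxf1-HA libraries and 1 input library per stage, made from chromatin without precipitation. Both tagged lines derive from E14; the promoter and inducer of the Foxf1 construct, and whether each line was 1 clone, are not given in the sources used here. The Hand1 list and the Foxf1 list deposited with replicate 1 were analysed; whether the latter was made from that library alone is not given in the sources used here. With 1 list per factor, no value has a replicate error and no difference between the lists was tested. The factor, the stage and the way of expressing the tagged protein differ together between the lists, so their parts cannot be told apart. Peaks do not measure RNA, so the marker genes of either stage were not examined here.

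Wnt proteins are secreted lipid-modified ligands. Canonical ligands bind Frizzled and Lrp5 or Lrp6 receptors and stabilise beta-catenin, which enters the nucleus and binds TCF and LEF factors on DNA. Non-canonical ligands act mainly through Ror and Ryk co-receptors on cell polarity and movement. In the embryo canonical signalling acts early, in forming mesoderm at the primitive streak, and non-canonical ligands act later in heart formation. Hand1 is a basic helix-loop-helix factor of the heart and lateral mesoderm, a family that binds E-boxes (CANNTG). Foxf1 is a forkhead factor of lateral and splanchnic mesoderm, a family whose core site reads TGTTTAC.

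The sequences available for these loci were promoter windows from RefSeq (GRCm38.p6), reaching from 250 bases before to 50 bases after an annotated start. They covered 9 of the 10 genes with 15 windows, and Wnt5a had no entry. Of the 15 windows, 1 was overlapped by a peak, of the Foxf1 list: the window at the innermost of 3 Wnt5b starts, chr6:119449337-119449636 on the minus strand. Of all 32851 windows, 3.80% were overlapped by a Foxf1 peak and 0.441% by a Hand1 peak. Peaks assigned to the Wnt loci by distance also covered starts of neighbouring genes. These included Adipor2 (chr6:119388685-119388984, minus strand), an adiponectin receptor gene near Wnt5b, and Iba57 (chr11:59163696-59163995, minus strand), a gene for a mitochondrial iron-sulphur cluster protein near Wnt3a. A Hand1 peak near Wnt11 overlapped 20 bases of the window of the non-coding gene Gm39054, which held none of the motifs searched. The 3 windows under Foxf1 peaks are shown 5′ to 3′ with motif matches on either strand in capitals. The motifs were the E-box CANNTG, the forkhead core TGTTTAC, and the core CTTTGAT known for TCF and LEF factors.
Wnt5b: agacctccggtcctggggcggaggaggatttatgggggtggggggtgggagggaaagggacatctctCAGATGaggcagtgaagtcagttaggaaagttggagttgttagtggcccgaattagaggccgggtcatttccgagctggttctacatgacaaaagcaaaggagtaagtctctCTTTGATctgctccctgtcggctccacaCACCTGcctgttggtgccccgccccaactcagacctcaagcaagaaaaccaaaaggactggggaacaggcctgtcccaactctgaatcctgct
Adipor2: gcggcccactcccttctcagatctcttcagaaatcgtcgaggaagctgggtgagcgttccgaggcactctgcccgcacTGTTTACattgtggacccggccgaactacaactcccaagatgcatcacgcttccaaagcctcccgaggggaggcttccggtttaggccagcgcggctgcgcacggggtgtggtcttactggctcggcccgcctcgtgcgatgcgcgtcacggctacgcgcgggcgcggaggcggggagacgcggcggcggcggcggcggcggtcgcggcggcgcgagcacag
Iba57: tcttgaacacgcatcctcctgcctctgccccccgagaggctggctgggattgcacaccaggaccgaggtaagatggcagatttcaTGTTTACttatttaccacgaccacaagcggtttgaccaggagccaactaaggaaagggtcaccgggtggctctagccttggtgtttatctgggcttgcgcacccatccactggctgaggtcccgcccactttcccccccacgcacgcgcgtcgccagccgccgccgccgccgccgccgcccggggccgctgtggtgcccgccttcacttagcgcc

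The window of Wnt5b held 2 E-boxes and 1 CTTTGAT, and the 2 neighbours' windows held 1 TGTTTAC each. Counted from 1 at the 5′ base, the Foxf1 peak covered bases 189 to 300 of the Wnt5b window. The E-box at bases 208 to 213 lay under the peak, and the CTTTGAT at bases 180 to 186 and the E-box at bases 68 to 73 did not. In the Adipor2 window the peak covered bases 1 to 283, including the TGTTTAC at bases 79 to 85. The peak covered the whole Iba57 window, with TGTTTAC at bases 86 to 92. TGTTTAC or its reverse complement GTAAACA occurred in 3.65% of all 32851 promoter windows and in 0 of the 15 windows of the Wnt genes. A match says only that the letters are there, and its absence from a window says nothing about binding elsewhere at the locus.

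CTTTGAT, on either strand, occurred in 3 of the 15 windows, against 3.73% of all windows. These 3 stretches are shown with 10 bases either side, since CTTTGAT is the core known for the canonical pathway's own factors. They lie at chr2:70474809-70474835 (plus strand) for Sp5, chr6:119449441-119449467 (minus strand) for Wnt5b and chr7:98835051-98835077 (minus strand) for Wnt11, with the match in capitals.
Sp5: gcaaggccccCTTTGATcaggaaaatc
Wnt5b: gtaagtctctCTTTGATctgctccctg
Wnt11: cggaccgtcgCTTTGATccgcccacgt

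The matches ended 98 bases before the start in Sp5, 65 in Wnt5b and 45 in Wnt11. None of the 3 matches lay under a peak of either list. E-boxes of any kind were in 11 of the 15 windows, and 72.3% of all windows held them. The 11 windows belonged to Lef1, Sp5, Wnt11, Wnt2b, Wnt3, Wnt3a and Wnt5b. Windows of 1 gene are not separate units: Lef1 had 4 windows, some of them overlapping, Wnt5b 3 and Wnt11 2. The narrower E-box CATCTG or its reverse complement CAGATG was in 2 of 15, from Lef1 and Wnt5b, against 17.2% of all windows.

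Sites of the 2 factors were spread differently over the 10 genes. A Hand1 site was found at 5 genes (Wnt2b, Wnt3, Wnt5a, Wnt11 and Axin2), where 9.9% of all protein-coding genes had such a site. A Foxf1 site was found at 8 genes, all but Axin2 and Lef1, where 53.3% of all protein-coding genes had such a site. The 4 ligand genes Wnt2b, Wnt3, Wnt5a and Wnt11 had sites in both lists, and 7.65% of all protein-coding genes did. Axin2 had a Hand1 site and no Foxf1 site, a combination of 2.25% of protein-coding genes, and Lef1 had a site in neither list. The lists differ in length and in their lowest −log10 q, 5.01 for Hand1 and 10.01 for Foxf1, and the counts were repeated on a common footing. With −log10 q of at least 10 in both lists, a Hand1 site was found at 3 genes, against 5.78% of all protein-coding genes. Without that limit and within 10 kb of the gene, it was found at 2 genes, against 2.8%. When the Foxf1 list was shortened to the 1134 peaks of highest −log10 p-value, the length of the Hand1 list, 2 of the 10 genes kept a site, against 19.2% of all protein-coding genes.

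**Figure D1:**
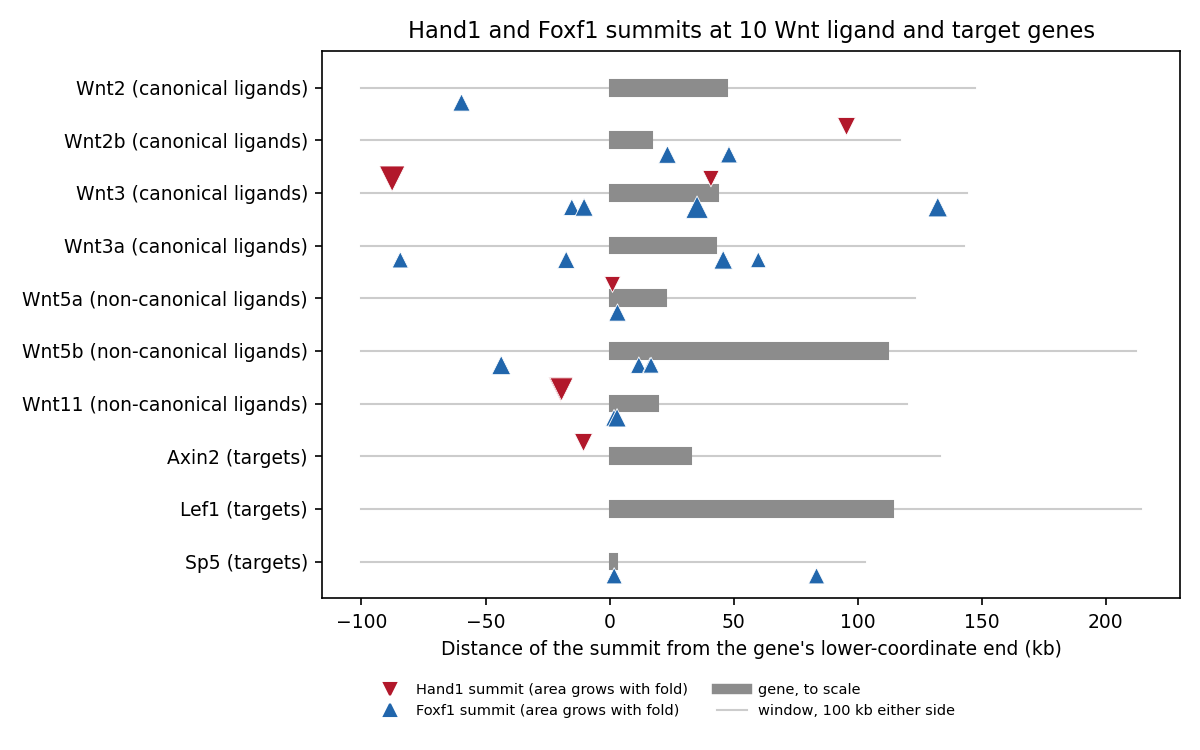
Position of each Hand1 summit (red, above the line) and Foxf1 summit (blue, below the line) along the x axis, in kb from the lower-coordinate end of its gene; grey bars are the genes, thin lines the windows of 100 kb either side, and symbol area grows with the authors' fold enrichment. The 7 ligand genes carry 18 of the 20 Foxf1 summits, the targets Axin2 and Lef1 carry none, and summits of Wnt5b and Wnt11 that lie close together overlap in the drawing.

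By group, the canonical ligands had 2.75 Foxf1 sites per gene, the non-canonical ligands 2.33 and the targets 0.667, against 1.25 over all protein-coding genes. Hand1 sites numbered 0.75, 1 and 0.333 per gene, against 0.28 over all protein-coding genes. This order of the groups did not hold under every alternative. Hand1 sites per gene were 0.25, 1 and 0.333 for canonical ligands, non-canonical ligands and targets within 50 kb, and 0.25, 0.667 and 0.333 with −log10 q of at least 10. Without sites at transfer RNA (tRNA) genes they were 0.75, 0.333 and 0.333. Counting each peak region once, they were 0.75, 0.667 and 0.333, since the 2 Hand1 summits of Wnt11 shared 1 region. Foxf1 sites per gene were 2, 2.33 and 0.333 within 50 kb of the genes, and 0.75, 2 and 0.333 within 10 kb. They were 0.25, 0.333 and 0 in the shortened Foxf1 list, and 0.75, 2 and 0.333 counting only sites nearest to the member. Canonical ligands kept the most Foxf1 sites per gene within 200 kb, by region, and with the limits on −log10 q and fold. The same held without high control levels and without sites at tRNA genes. The windows differ in size because the genes do, from 2.80 kb (Sp5) to 114 kb (Lef1). Per Mb of window there were 11.6 Foxf1 sites for canonical ligands, 9.27 for non-canonical ligands and 2.67 for targets, and 5.02 over all protein-coding genes. Hand1 sites per Mb were 3.16, 3.97 and 1.33, against 1.13, with both summits of the Wnt11 region counted. The groups hold 3 or 4 genes each and were not tested against each other.

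The ligand groups differed in where the Foxf1 summits lay. All 3 non-canonical genes had a Foxf1 summit inside the gene, 6 of their 7 sites. Of these 6 summits, 2 shared 1 region of Wnt5b. Of the 4 canonical genes, Wnt3 had 1 inside and Wnt2, Wnt2b and Wnt3a had none, 1 of 11 sites. With Sp5, 5 of the 10 genes had a Foxf1 summit inside, against 11% of all protein-coding genes. A Hand1 summit lay inside 2 genes, Wnt3 and Wnt5a, against 1.42% of protein-coding genes. The 5 genes with a summit inside differ in length: Wnt5b spans 112 kb, Wnt3 43.8 kb, Wnt5a 22.9 kb, Wnt11 19.7 kb and Sp5 2.80 kb, where the median length of protein-coding genes was 17.2 kb. The part of gene length in these counts was not tested.

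Among the canonical ligands, Wnt3 had 6 sites in all, the most of the 10 genes by the 100 kb rule. Counting only sites nearest to the gene itself, Wnt3 had 2, Wnt5b 3 and Wnt11 4, and within 10 kb Wnt3 had 2 and Wnt5b 3. Wnt3 is required for the primitive streak and mesoderm to form. Its 4 Foxf1 sites made it 1 of 3 genes, with Wnt3a and Wnt5b, to reach 4, as 9.78% of protein-coding genes did. Its 2 Hand1 sites were matched by Wnt11, and 2.4% of protein-coding genes had 2 or more. The strongest Foxf1 site of all 10 loci lay inside Wnt3 (chr11:103809217-103810495), 35.3 kb downstream of the start and 8.59 kb before the gene's other end. Its fold enrichment, the authors' ratio of the summit to the background of the peak caller, was 12.3, higher than 92.9% of the list, with a −log10 q-value of 33.7. The number of fragments at that summit, inferred from the authors' fold and p-value, was 44 (95% exact Poisson interval 32.0 to 59.1, counting error only).

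A Hand1 summit lay 5.60 kb further along inside Wnt3 (chr11:103814440-103815320). It was weak, with a fold of 6.16, a −log10 q-value of 5.88 where the list's limit was 5.01, and 13 inferred fragments (interval 6.92 to 22.2). The peaks of the 2 factors inside Wnt3 did not touch, with 3.94 kb between them. The other Wnt3 sites lay outside the gene, in neighbours. Foxf1 sites at 10.3 kb and 15.2 kb before the start (folds 7.65 and 6.38) lay inside Wnt9b, itself a Wnt ligand gene. The Foxf1 site 88.4 kb past the gene (fold 9.06) lay inside Nsf, and the second Hand1 site, 87.6 kb before it (chr11:103686385-103686795), inside Gosr2. That distant Hand1 site had the highest fold of the 7, 16.4, with a −log10 q-value of 35.3 and 36 inferred fragments.

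Wnt3a, a ligand of the streak and tail bud, had 4 Foxf1 sites and no Hand1 site. The nearest Foxf1 summit lay 3.08 kb upstream of the start (chr11:59293602-59294220) with a fold of 8.15 and 25 inferred fragments. A second upstream summit, at 17.2 kb, lay inside Wnt9a, 1.04 kb from a start of that gene, with a fold of 5.66. On the other side, 17.5 kb and 84.3 kb past the gene, the summits lay 2300 bp from a start of Arf1 (fold 6.85) and 53 bp from that of Iba57 (fold 6.06). The nearest Hand1 summit was 281 kb from Wnt3a. Of its 4 Foxf1 sites, 1 had Wnt3a as the nearest protein-coding gene.

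Wnt2 and Wnt2b, ligands that act together in forming the lung, had fewer sites. At Wnt2b the Foxf1 summits lay 6.41 kb upstream (chr3:104967893-104968357, fold 7.20) and 31.2 kb upstream (chr3:104992689-104993165, fold 6.58). Its Hand1 summit, 78.5 kb upstream, lay inside Cttnbp2nl with a fold of 7.55, a −log10 q-value of 9.14 and 16 inferred fragments. Wnt2 had 1 Foxf1 site (chr6:17925081-17925703, fold 6.89, 26 inferred fragments), 60 kb past the gene and inside St7. No summit of either list lay inside Wnt2 or Wnt2b.

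Among the non-canonical ligands, Wnt5a had 1 site of each factor, both near the same gene end. Wnt5a drives convergent extension and outgrowth of the body axis. The Hand1 summit lay 0.949 kb inside the lower-coordinate end (chr14:28505238-28506011) with a fold of 5.83, a −log10 q-value of 6.03 and 15 inferred fragments (interval 8.40 to 24.7). The Foxf1 summit lay 3.16 kb inside the same end (chr14:28507481-28507959) with a fold of 6.93, a −log10 q-value of 18.3 and 38 inferred fragments (interval 26.9 to 52.2). The summits were 2.21 kb apart, the closest of any Hand1 and Foxf1 sites at the 10 genes, and 1.47 kb separated the peaks. Over the whole Hand1 list, 23.1% of peaks had a Foxf1 summit at least this near.

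Wnt11, a ligand expressed in the early heart field and outflow tract, had 2 sites of each factor. Its 2 Foxf1 summits lay inside the gene, 1.76 kb after the first start and 778 bp from a start of Gm33770 (chr7:98836618-98837145, fold 6.41, 21 inferred fragments) and 0.746 kb before the second (chr7:98837920-98838312, fold 7.92, 32 inferred fragments). The first of these was the weakest Foxf1 site at the 10 genes by −log10 q-value, 10.02, where the list's limit was 10.01. Its 2 Hand1 summits shared 1 region 19.4 kb and 19.6 kb before the gene (chr7:98815240-98815900), with folds of 13.1 and 14.7, −log10 q-values of 41.2 and 40.2, and 53 and 47 inferred fragments. Both of these Hand1 summits lay on tRNA genes, n-TPagg7 and n-TPtgg8. Of all Hand1 peaks, 24.7% lay within 500 bp of a tRNA gene. Without peaks at tRNA genes, Wnt11 had no Hand1 site and the genes with a Hand1 site numbered 4, against 8.27% of protein-coding genes. The part of the tRNA genes in the Wnt11 peaks was not tested.

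Wnt5b, the paralogue of Wnt5a, had 4 Foxf1 sites and no Hand1 site. Of these, 3 summits lay inside the gene, 2 of them in 1 region over the innermost start (chr6:119448651-119449448), 134 bp and 563 bp downstream of it. They were among the lower folds of the list, 5.79 and 4.82, above 8.41% and 2.26% of its peaks. The third, 5.06 kb downstream of the same start (chr6:119444165-119444512), had a fold of 6.23. The strongest Wnt5b site by −log10 q-value, 31.9 (fold 8.64, 56 inferred fragments), lay 43.7 kb past the gene, 132 bp from the start of Adipor2 (chr6:119388702-119389068). The inferred control level at the 4 sites was 4.14 to 5.84, above the list's median of 2.92 and under its limit for a high level of 7.83; its part in these peaks was not tested. The nearest Hand1 summit was 5168 kb from Wnt5b.

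Among the targets, Axin2 encodes a scaffold of the beta-catenin destruction complex and feeds back on the pathway. It had 1 Hand1 site (chr11:108906777-108907195), 10.8 kb outside the gene and 13.3 kb upstream of its annotated start, inside the non-coding gene Gm46298. The fold was 7.65, the −log10 q-value 11.0 and the inferred fragments 20 (interval 12.2 to 30.9). The nearest Foxf1 summit was 243 kb from Axin2. Sp5 encodes a zinc finger factor that binds many of the same targets as TCF and LEF factors. It had 2 Foxf1 sites and no Hand1 site, 1 inside the gene 1.85 kb after the start (chr2:70476091-70476963) and 1 at 80.6 kb past it (chr2:70558197-70558517), 3.80 kb from a start of Gad1. Both had the same values, a fold of 6.00, a −log10 q-value of 10.4 and 24 inferred fragments. Lef1 encodes a DNA-binding partner of beta-catenin. Its nearest summits were 291 kb (Foxf1) and 1888 kb (Hand1) from the gene.

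The limit of 100 kb did not split a cluster of sites. The sites farthest inside it lay at 87.6 kb (Hand1, Wnt3) and 88.4 kb (Foxf1, Wnt3). The nearest outside it lay at 190 kb (Hand1, Wnt5a) and 117 kb (Foxf1, Wnt2b).

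The sites were compared with the rest of their list by rank. Of the 7 Hand1 sites, 3 were above the list's median fold of 7.92, the 2 at tRNA genes and the distant Wnt3 site, and 4 were below it. The 7 folds ran from 5.83 to 16.4 with a median of 7.65. Of the 20 Foxf1 sites, 6 were above the list's median fold of 7.62 and 14 below, with a range of 4.82 to 12.3 and a median of 6.71. Inferred fragments ran from 13 to 53 at the Hand1 sites and from 21 to 56 at the Foxf1 sites. No site of either list reached the level taken as high for the inferred control. The Foxf1 sites at these genes were thus mostly in the weaker part of the list, and the 2 that remained in the list shortened to 1134 peaks had −log10 q-values of 33.7 (Wnt3) and 31.9 (Wnt5b, at Adipor2).

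**Figure D2:**
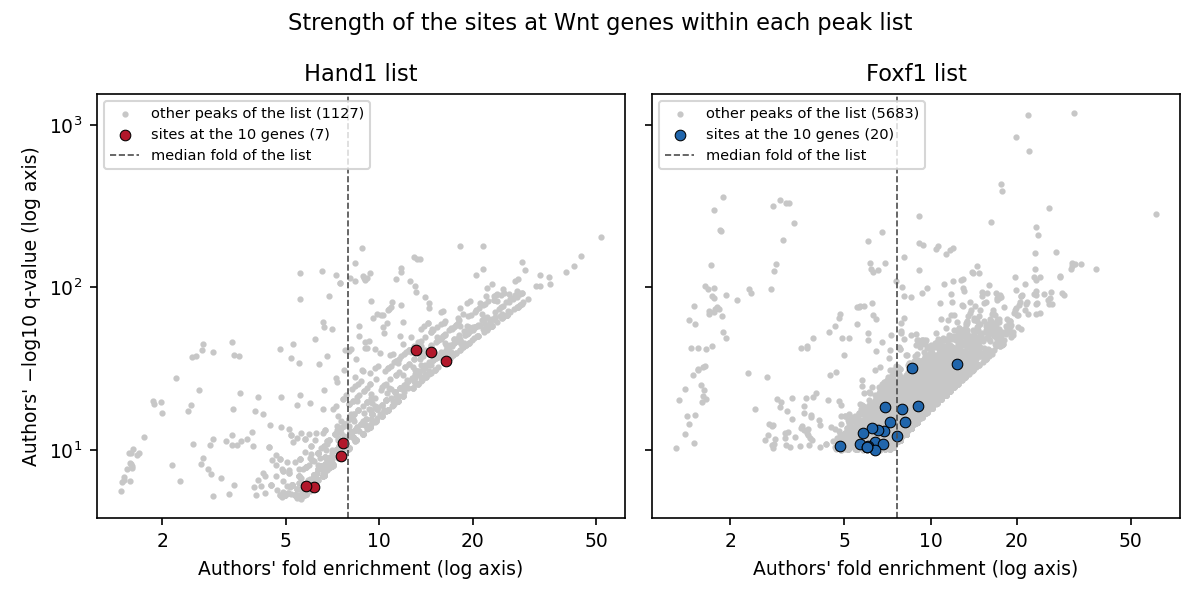
Each point is 1 peak, with the authors' fold enrichment on the x axis and their −log10 q-value on the y axis, both on log axes; coloured points are the sites at the 10 Wnt genes, grey points the other peaks of the list, and the dashed line the list's median fold. In the Hand1 list 3 of 7 coloured points lie right of the line and in the Foxf1 list 6 of 20.

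No Hand1 peak at the 10 genes shared a base with a Foxf1 peak: 0 of 7 Hand1 sites and 0 of 20 Foxf1 sites. Over the whole lists, 17.6% of Hand1 and 3.24% of Foxf1 peaks overlapped a peak of the other list. At Wnt11 the nearest pair of summits was 21.2 kb apart and at Wnt2b 47.3 kb. The 4 genes with sites of both factors therefore had them at separate positions. With only 7 and 20 sites, the counts of 0 do not show less overlap than in the whole lists, and this was not tested.

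Of the 7 Hand1 sites, 5 had the Wnt gene as their nearest protein-coding gene, and of the 20 Foxf1 sites 10 did. Counting these alone, 4 genes had a Hand1 site (Wnt3, Wnt5a, Wnt11 and Axin2). Foxf1 sites were then left at 7 genes, since the only Wnt2 site lay in St7. The share of all protein-coding genes by this rule was not computed, and the shares within 100 kb do not apply to it. Counting only these nearest sites, canonical ligands had 0.75 Foxf1 sites per gene and non-canonical ligands 2 per gene, so the order of these 2 groups changed. Within 10 kb of the genes the Foxf1 values were likewise 0.75 and 2 sites per gene.

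The other pathway genes were counted by role from a list of 76 genes. Lgr5, Nkd1, Rnf43 and Znrf3 were each counted in 2 roles, as targets and as pathway components, so the roles add to more than 76. A Hand1 site lay within 100 kb of 10 of them and a Foxf1 site of 55, 13.2% and 72.4%, beside 9.9% and 53.3% of all protein-coding genes. Sites of both lists were near 7 genes (9.21%): Wnt8b, Wnt9b, Fzd7, Lrp5, Dkk1, Wif1 and Bcl9. Of the 12 other ligand genes, 11 had a Foxf1 site and 2 a Hand1 site. The most sites were at Wnt7a, with 6 Foxf1 sites, and at Wnt1 and Wnt10b, which are neighbours and shared the same 5. Near Wnt7a the strongest lay 77.2 kb away with a fold of 14.4, nearest to Fbln2, and a site 0.565 kb from the gene had a fold of 7.55. The Foxf1 summit nearest to Wnt1 lay 0.134 kb from it with a fold of 10.6. Wnt9b shares its 5 sites with Wnt3, and Wnt9a its 3 with Wnt3a.

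Of the 15 receptor genes, 11 had a Foxf1 site (73.3%) and 2 a Hand1 site (13.3%), Fzd7 and Lrp5. The shares of all protein-coding genes were 53.3% and 9.9%. Fzd7, a Frizzled receptor of early mesoderm, had 2 Hand1 sites 72.3 kb and 73.1 kb away (folds 4.29 and 6.16) and 2 Foxf1 sites 93.5 kb and 97.9 kb away (folds 7.49 and 8.74). All of these sites lay nearest to other protein-coding genes, Cdk15 for Hand1 and Gm973 for Foxf1. Lrp5, a co-receptor of canonical signalling, had a Hand1 site 8.52 kb away at a tRNA gene (fold 18.2) and a Foxf1 site inside it (fold 6.41). Lrp6, the related co-receptor, had 4 Foxf1 sites, the nearest at 43.4 kb (fold 6.13). All 4 lay nearer to other protein-coding genes.

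Of the 11 secreted antagonist genes, 5 had a Foxf1 site (45.5%) and 2 a Hand1 site (18.2%), beside 53.3% and 9.9% of all protein-coding genes. Dkk1, which blocks Lrp5 and Lrp6, had overlapping peaks of both factors 83.9 kb away (Hand1 at chr19:30461799-30462180 with a fold of 6.26, Foxf1 at chr19:30461771-30462272 with a fold of 8.0). Wif1, which binds Wnt proteins, had a Foxf1 summit 0.023 kb from the gene (fold 7.25) and a Hand1 summit at 17.1 kb (fold 7.19). Notum, an enzyme that removes the lipid from Wnt proteins, had 6 Foxf1 sites, 2 of them inside the gene (folds 8.18 and 7.74). Dkk3 had 2 Foxf1 sites, at 20.8 kb and 23.9 kb. Among ligands, Wnt8b also had overlapping peaks of both factors, 19.1 kb away (Hand1 fold 6.66, Foxf1 fold 9.24).

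Of the 11 genes for Wnt secretion, R-spondins and their receptors, 6 had a Foxf1 site (54.5%) and 2 a Hand1 site (18.2%). The shares of all protein-coding genes were 53.3% and 9.9%. The genes with a Hand1 site were Wls (fold 2.57 at 0.881 kb) and Rspo3 (fold 6.21 at 34.0 kb), like Apc named after their values were seen. The Hand1 list's median fold was 7.92. The Wls peak had a −log10 q-value of 38.1. By the formula used here, so low a fold with that q-value needs a control level above the limit called high. The pathway counts include this peak and were not repeated without high control levels. Lgr6 had 3 Foxf1 sites, the nearest 0.772 kb away (fold 5.39), and Rspo1 and Znrf3 had 2 each. Of the 11 intracellular components, 8 had a Foxf1 site (72.7%). Csnk1a1 had 6 such sites, all at least 47.9 kb away, and Dvl1 and Dvl2 had 3 each with 1 inside the gene. Apc, a destruction complex scaffold, had the only Hand1 site of this group, inside the gene with a fold of 7.29. Of the 9 nuclear components, 7 had a Foxf1 site (77.8%). Tcf7l1, a repressive TCF factor, had 2 of its 4 inside the gene (folds 7.70 and 6.71) and Pygo2 had 6, all at least 33.6 kb away. All 6 Pygo2 sites lay nearer to other protein-coding genes. Bcl9, a beta-catenin co-factor, had a Hand1 site at a tRNA gene 45.5 kb away (fold 9.33) and 3 Foxf1 sites.

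Of 11 other target genes, 9 had a Foxf1 site and 0 a Hand1 site, beside 53.3% and 9.9% of all protein-coding genes. Tbx6, a paraxial mesoderm factor, had 5 Foxf1 sites, with folds of 13.5 at 20.9 kb and 12.6 at 4.47 kb. These 2 sites lay nearest to Mapk3 and Ypel3, and none of the 5 had Tbx6 as its nearest protein-coding gene. Ccnd1, a cell cycle gene, had 1 of its 3 inside the gene (fold 9.60), and Cdx2, a posterior patterning factor, had 3, the nearest at 6.61 kb (fold 7.52). T (Brachyury), named after its values were seen, had 3 Foxf1 sites with a highest fold of 25.6. Nkd1 and Rnf43, among these other targets, had no Foxf1 site, like Axin2 and Lef1, whereas Sp5 had 2. The lists hold few genes, and the 2 sets of targets were not tested against each other.

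**Figure D3:**
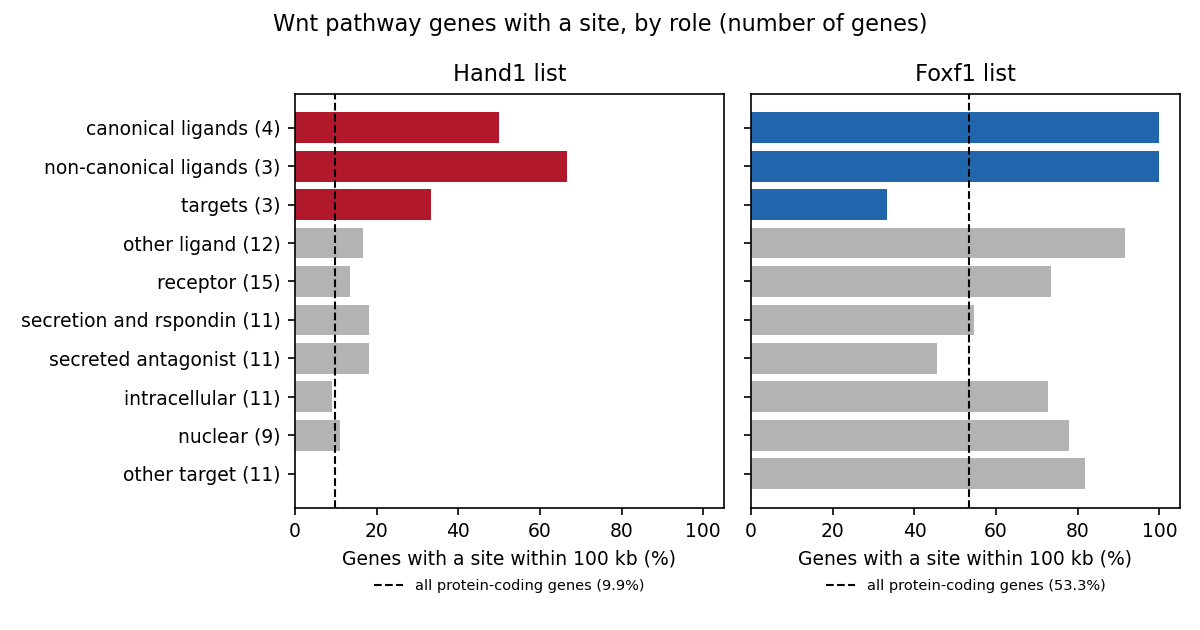
Share of genes with at least 1 site in the gene or within 100 kb, by role on the y axis with the number of genes in parentheses, for the Hand1 list (left) and the Foxf1 list (right); coloured bars are the 10 Wnt genes, grey bars the other pathway genes, and the dashed line all protein-coding genes (9.9% and 53.3%). All 7 ligand genes of the coloured groups had a Foxf1 site, and of the targets 1 of 3 did.

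For Wnt3, picked because it had the most sites of the 10 genes within 100 kb (not by nearest gene), 23 protein-coding genes including itself had the same pair of counts, 2 Hand1 and 4 Foxf1 sites. The 5 nearest to it in gene length that share no site with it were Wdr93, Creb3l1, Igdcc4, Dnajc17 and Lrrc2, each at a distance of 0 over the 2 lists in log2(sites + 1). At least as many sites in both lists were found at 155 of 21887 protein-coding genes, 0.708%. Since Wnt3 was picked by these same counts, this share describes it and cannot show that it is unusual.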

How the data were processed

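Per the submitters' processing notes, Trim Galore 0.6.6, Bowtie2 2.3.4.3, SAMtools 1.9, deepTools 3.5.0 and MACS2 2.2.7.1 were used with build mm10; settings, the control and any pooling of replicates are not given in the sources used here. Both deposited lists follow the narrowPeak format. Fold enrichment is the authors' ratio for each summit. The −log10 p and −log10 q are the authors' own for each summit, and the deposited score is 10 times the −log10 p without its decimals. The summit offset is the authors' position in bp. These values were used only within a list, and each line counted as 1 site.

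Sites were counted with Python 3.11.15, pandas 2.3.3 and SciPy 1.17.1 against RefSeq genes of GRCm38.p6, the assembly called mm10. Coordinates are 1-based. Overlap meant at least 1 shared bp. Depth is not given, so fragments (k) and the control level (λ) at a summit were solved from fold = (k + 1)/(λ + 1) and the Poisson p-value; whole k matched the −log10 p-value within 0.01 for 100% of Hand1 and 99.9% of Foxf1 peaks. A control level of 5 times the lowest was called high. The counting was tested on simulated data. All 86 symbols matched the table. Each member's nearest and strongest sites, all sites within 10 kb, the pathway genes with sites in both lists and up to 3 per role were named. Members and lists were chosen with earlier results of these data known. No statistical test was made. Alternatives were the window, thresholds, list length, regions, control level, nearest gene and tRNA genes. Exons, introns and sequences under peaks outside the promoter windows were not analysed here.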

Additional observations from a re-analysis of the deposited data

How the results depend on the processing

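The alternative without peaks at tRNA genes was chosen after seeing the data. Of 152 recomputed values over 27 results, 100 stayed within 1.5 times the main value. Within 50 kb, canonical ligands had 0.25 Hand1 and targets 0.333 Foxf1 sites per gene. Within 10 kb, 2 members had 2 Hand1 sites and Foxf1 sites numbered 10; sites per gene were 0.25 (canonical), 0.333 (non-canonical) and 0 (targets) for Hand1, and 0.75 (canonical) and 0.333 (targets) for Foxf1. Of the 76 other pathway genes, 3 then had a Hand1 and 25 a Foxf1 site, against 2.8% and 22.7% of all protein-coding genes. With −log10 q at or above 10, 3 members had 4 Hand1 sites (canonical 0.25 per gene), against 5.78% of protein-coding genes, and 5 other pathway genes had one. With a fold of at least 7, 5 members had 7 Foxf1 sites, against 44.1% of protein-coding genes (1.25, 0.667 and 0 per gene for canonical, non-canonical and targets). With lists of equal length, 2 members had 2 Foxf1 sites (0.25, 0.333 and 0 per gene). Counting only sites nearest to the member gave 10 Foxf1 sites (canonical 0.75, targets 0.333) and 0.25 Hand1 sites per canonical ligand. Without tRNA genes, non-canonical ligands had 0.333 Hand1 sites per gene. Leaving out high control levels changed no count at the members, and the number of overlapping sites was 0 in each of its 4 alternatives.

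No paired analysis was possible because each factor has 1 list, so replicates could not be left out in turn either. Depth limits the weak sites: a summit of 13 inferred fragments has an interval of 6.92 to 22.2.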

Other observations

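Over the whole Foxf1 list, 1249 of the 32851 promoter windows were overlapped by a peak. TGTTTAC or its reverse complement was in 5.76% of these, against 3.65% of all windows, and CTTTGAT or its reverse complement in 1.36%, against 3.73%. E-boxes (CANNTG) were in 60.2%, against 72.3%, and CATCTG or its reverse complement in 12.5%, against 17.2%. The windows under Foxf1 peaks had a median GC content of 64.3%, and all windows 52.7%, so base composition moved with these shares and its part in them was not tested. In the Hand1 list 145 windows were overlapped by a peak, with a median GC content of 53.0%. Of these, 57.2% held an E-box, against 72.3% of all windows, and 8.97% CATCTG or its reverse complement, against 17.2%. TGTTTAC and CTTTGAT were in 4.14% each, against 3.65% and 3.73%. No difference in these shares was tested.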
